A study of Mus musculus with 6 samples.

Results

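Rnf13 and 6 related genes, Rnf167, Rnf128, Rnf130, Rnf149, Rnf150 and Znrf4, encode membrane-bound ubiquitin ligases with a protease-associated domain and a RING domain. All 7 were found by symbol in the deposited table of 55450 genes. The set was chosen by the measured Rnf13 level, which was lower in Myrf-kd than in WT retina, so the Rnf13 difference is described here without a test. The other members were taken for their protein family.

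RNA of whole retina was sequenced in 6 libraries from C57BL/6 mice aged 8 weeks. The labels call 3 of them Myrf-kd, from mice with 1 altered Myrf allele (Myrf +/−), and 3 WT, from wild-type mice. Which part of Myrf is altered, and whether each library is a separate animal, is not stated in the labels, so the spread between libraries may be partly technical. Whole-tissue RNA does not separate fewer cells of a type from less RNA per cell.

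Ligases of this family hold the protease-associated domain on the lumenal or outer side of a membrane and the RING domain in the cytosol. The RING domain recruits a ubiquitin-conjugating enzyme (E2) and passes ubiquitin to a target protein, which can then be sorted to the lysosome or degraded. RNF13 and RNF167 are known from endosomes and lysosomes. RNF128, also called GRAIL, is known for T cell unresponsiveness, and ZNRF4 for the endoplasmic reticulum.

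Promoter windows were taken from the RefSeq table of GRCm38.p6, which holds 1 for each member except Rnf150. The window of Rnf13 (chr3:57735807-57736106, plus strand) is shown because Rnf13 is the member that differed between the groups. The window of Rnf167 (chr11:70646985-70647284, plus strand) is shown beside it because, of the other members, Rnf167 has the coding sequence most like that of Rnf13. Each runs from 250 bases before to 50 bases after the RefSeq start. Capitals mark CCAAT, the CCAAT box, in Rnf13 and TCTCGCGA or its reverse complement in Rnf167.
Rnf13: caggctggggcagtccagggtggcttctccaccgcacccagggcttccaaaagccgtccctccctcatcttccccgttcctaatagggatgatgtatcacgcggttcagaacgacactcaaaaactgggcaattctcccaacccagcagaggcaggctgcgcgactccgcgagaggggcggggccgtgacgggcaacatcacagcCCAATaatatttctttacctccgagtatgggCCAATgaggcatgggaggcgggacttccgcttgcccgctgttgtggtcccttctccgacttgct
Rnf167: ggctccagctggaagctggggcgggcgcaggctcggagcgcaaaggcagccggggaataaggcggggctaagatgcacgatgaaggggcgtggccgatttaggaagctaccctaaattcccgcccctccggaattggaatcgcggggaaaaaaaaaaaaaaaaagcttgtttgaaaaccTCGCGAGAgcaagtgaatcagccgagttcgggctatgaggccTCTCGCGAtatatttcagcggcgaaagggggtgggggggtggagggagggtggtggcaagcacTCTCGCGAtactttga

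In the Rnf13 window CCAAT began at positions -45 and -14, counted from 0 at the RefSeq start. CCAAT on either strand was present in 37.4% of the 32851 windows in the table. In the Rnf167 window the 8 letters TCTCGCGA were present 3 times over both strands, against none in Rnf13, and 0.995% of all windows held them at least once. The Rnf149 window held them 1 time. CTGGCAC and CTGGTAC, forms of a motif described for the MYRF protein, were in 5.01% and 2.24% of all windows. Neither was found in the 6 member windows on either strand, and CACGTG, an E-box present in 7.15% of windows, was also not among these letters. The Rnf167 window also held CCAAT 1 time over both strands, left in lower case, and no match overlapped another.

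As background to the comparison, Myrf itself, the gene altered in these mice, held 0.279, 0.382 and 0.351 FPKM across Myrf-kd libraries 1, 2 and 3, against 0.359, 0.397 and 0.463 FPKM across the WT libraries in the same order. FPKM counts fragments per kilobase of exon, scaled to the size of the library. The groups overlapped, so these values do not check the labels. The library totals lay between 50695091 and 70298511 count units, with about 4 units per fragment. Markers of the labelled tissue were present, with all 8 rod genes at a mean of at least 1 FPKM. Myrf-kd 3 stood off from the rest in a principal component analysis, at 30.1 on component 1 (30.2% of the variance) against −16.9 to 1.76 in the other libraries.

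Rnf13 (ENSMUSG00000036503, chromosome 3, 57736062 to 57835231, plus strand, GRCm38) encodes a ligase of endosomes and lysosomes linked to sorting through the AP-3 adaptor and to the stress sensor IRE1. Myrf-kd libraries 1, 2 and 3 held 4.45, 4.25 and 3.70 FPKM. WT libraries 1, 2 and 3 held 9.27, 9.24 and 10.0 FPKM. All Myrf-kd libraries lay below all WT libraries, and the lowest value was that of Myrf-kd 3. On average the Myrf-kd level was 4.14 ± 0.391 FPKM and the WT level 9.51 ± 0.445 FPKM (SD, n = 3 each), a ratio of 0.435. Between 730 and 836 fragments per Myrf-kd library and between 1363 and 2014 per WT library stood behind these values. In the fit across 13673 genes with edgeR the log2 fold change was −1.22 ± 0.09 (SE). Without Myrf-kd 3 the log2 fold change was −1.15.

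**Figure D1:**
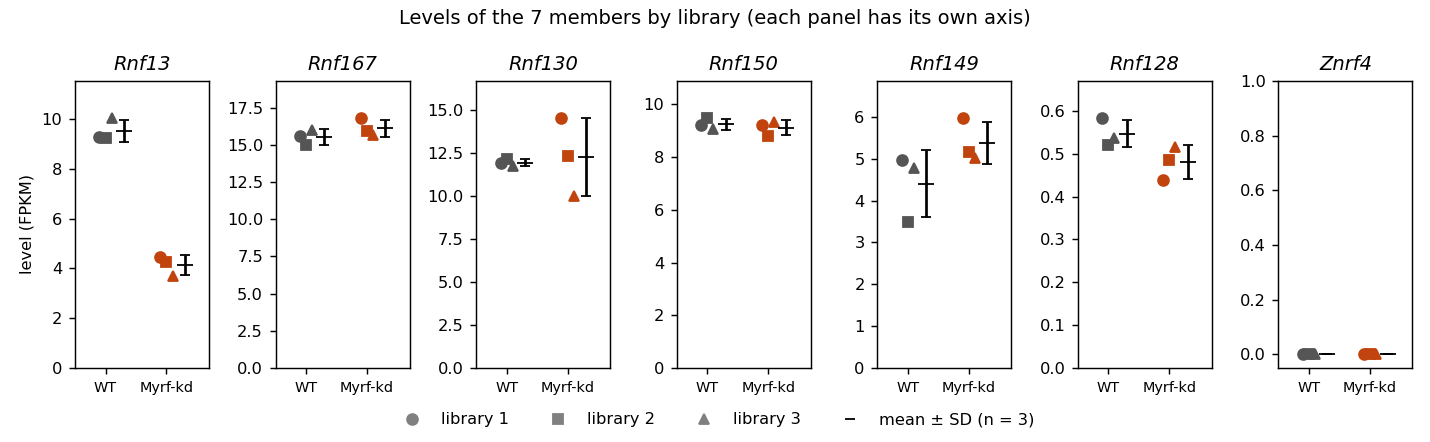
Level of each member in FPKM (vertical axis, a separate scale in each panel) in the 3 WT and 3 Myrf-kd libraries; points are libraries and bars are mean ± SD. The Rnf13 libraries split at 4.45 FPKM or below in Myrf-kd and 9.24 FPKM or above in WT, while Rnf167, Rnf130 and Rnf150 overlap between the groups.

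Sums of cornea and surface epithelium markers and of rod markers also differed between the libraries in which Rnf13 was low and high. Sums of the other marker lists, cone, bipolar, Mueller glia and amacrine and ganglion cells among them, overlapped. Of 8 cornea and surface epithelium markers, 3 reached a mean of 1 FPKM and Ly6d was at 0 in every library. Their sum lay between 0.666 and 2.86 FPKM in Myrf-kd and between 6.82 and 10.3 FPKM in WT. The sum of the 8 rod markers lay between 6306 and 6867 FPKM in Myrf-kd and between 6915 and 9373 FPKM in WT, also without overlap. Those of retinal pigment epithelium (50.4 to 73.7 against 67.3 to 94.1 FPKM), oligodendrocytes (8.89 to 10.3 against 9.75 to 11.5), microglia (7.94 to 9.58 against 8.29 to 9.55) and endothelium (29.8 to 34.3 against 28.7 to 32.7) overlapped. The lens sum was highest in Myrf-kd 3, at 33.8 FPKM, and between 0.519 and 13.2 FPKM elsewhere. The part of these tissues in the Rnf13 values was not tested.

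Rnf167 (ENSMUSG00000040746, chromosome 11, 70647235 to 70651412) encodes an endolysosomal ligase known for targeting the vesicle protein VAMP3 and AMPA-type glutamate receptors. Myrf-kd libraries 1, 2 and 3 held 16.8, 15.9 and 15.7 FPKM, and WT libraries 1, 2 and 3 held 15.6, 15.0 and 16.0 FPKM. The groups overlapped, with means of 16.1 ± 0.572 and 15.5 ± 0.521 FPKM (SD, n = 3 each). The fitted level in Myrf-kd was 1.03 times that of WT, with a 95% interval from 0.927 to 1.14, and was not past the threshold (adjusted p = 0.881 with edgeR, Benjamini-Hochberg over all genes). Whether the change in Rnf167 differs from that in Rnf13 was not tested.

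Rnf150 (ENSMUSG00000047747, chromosome 8, 82863356 to 83091268) encodes a member of the family whose targets are little described. Myrf-kd libraries 1, 2 and 3 held 9.23, 8.80 and 9.34 FPKM, and WT libraries 1, 2 and 3 held 9.23, 9.47 and 9.06 FPKM. The groups overlapped and the fitted ratio was 0.974, with a 95% interval from 0.887 to 1.07 (edgeR adjusted p = 0.867). Rnf150 varied least among the detected members, with a coefficient of variation of 2.55% over all 6 libraries, on 2402 to 3168 fragments per library.

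Rnf130 (ENSMUSG00000020376, chromosome 11, 50025346 to 50104758), the mouse counterpart of the fly gene goliath, encodes a ligase linked to turnover of the LDL receptor. Myrf-kd libraries 1, 2 and 3 held 14.5, 12.4 and 9.99 FPKM. WT libraries 1, 2 and 3 held 11.9, 12.2 and 11.8 FPKM. Myrf-kd 1 was the highest library and Myrf-kd 3 the lowest, with WT between them. The coefficient of variation was 18.5% in Myrf-kd and 1.82% in WT. The fitted ratio was 1.02, with a 95% interval from 0.801 to 1.29 (edgeR adjusted p = 0.974), and the direction turned without Myrf-kd 1, where the log2 fold change was −0.12 ± 0.13 (SE).

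Rnf149 (ENSMUSG00000048234, chromosome 1, 39551296 to 39577405, minus strand) encodes a ligase linked to turnover of the kinase BRAF. Myrf-kd libraries 1, 2 and 3 held 5.96, 5.15 and 5.03 FPKM, and WT libraries 1, 2 and 3 held 4.97, 3.48 and 4.78 FPKM. All Myrf-kd libraries lay above all WT libraries, by a margin of 5.03 against 4.97 FPKM at the nearest pair, and WT 2 was the lowest. In 14.6% of all tested genes the groups did not overlap by scaled counts, where those of Rnf149 also did not. The fitted ratio was 1.21, with a 95% interval from 0.937 to 1.56, and did not pass (edgeR adjusted p = 0.702). Without WT 2 the log2 fold change went from 0.27 to 0.14.

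Transcripts of Gm15832, an overlapping gene on the same strand, share 22.6% of the 50-base words of the Rnf149 transcripts. Gm15832 was listed at 0.0937 FPKM in WT 2 and at 0.792 to 1.02 FPKM in the other libraries, so it was low in the same library as Rnf149. Its part in the Rnf149 values was not tested, and Rnf149 is uncertain to that extent.

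Rnf128 (ENSMUSG00000031438, chromosome X, 139563316 to 139673145), the T cell ligase GRAIL, was the lowest of the members with counts. Myrf-kd libraries 1, 2 and 3 held 0.438, 0.486 and 0.516 FPKM, and WT libraries 1, 2 and 3 held 0.582, 0.521 and 0.536 FPKM, on 27 to 38 fragments per library. The groups did not overlap, by 0.516 against 0.521 FPKM at the nearest pair. Over all tested genes 14.6% had groups that did not overlap, a share taken on scaled counts and not on FPKM. The Rnf128 mean lay below the filter of 1 FPKM, so Rnf128 was not in the test or in that share. With no filter its log2 fold change was −0.22 ± 0.20 (SE, edgeR adjusted p = 0.787 over 31233 genes). Of 5 T cell markers, 0 reached a mean of 1 FPKM, and Cd3e and Cd3d were listed at 0 in every library. Cd8a had signal in every library, at means of 0.175 FPKM in Myrf-kd and 0.149 in WT. Cd4 was at 0 in 1 library and Trac in 4.

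Znrf4 (ENSMUSG00000044526, chromosome 17, 56511248 to 56512431), which encodes the ligase for the chaperone calnexin, had no count in any library. A count of 0 allows up to 3 fragments, which is 0.171 to 0.237 CPM (count units scaled to the library total) by library, from counting error alone.

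Of the 4 members other than Rnf13 that were tested, 0 passed by edgeR, with 0 at an unadjusted p under 0.05. Limma on FPKM and DESeq2 also called 0 of 4. Over all tested genes 6 of 13673 passed, or 0.0439%. The 4 that were higher in Myrf-kd make 0.0293% and the 2 that were lower 0.0146%, and 7.47% of all tested genes were at an unadjusted p under 0.05.

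Levels of different members can be compared only per length, and the length matters here. In the table, FPKM followed the count over 1 fixed length per gene, which for the detected members lay close to the merged length of all annotated exons. That length was 10022 bases for Rnf13, whose longest coding transcript has 2678 bases. It was 17236 bases for Rnf150 against a transcript of 9682 bases, and 1559 bases for Rnf130 against 1502. The deposited values therefore hold no measure of which of the 11 annotated Rnf13 transcripts was made.

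By FPKM, the WT order was Rnf167 at 15.5 ± 0.521, Rnf130 at 11.96 ± 0.218, Rnf13 at 9.51 ± 0.445, Rnf150 at 9.25 ± 0.205, Rnf149 at 4.41 ± 0.810 and Rnf128 at 0.547 ± 0.0319 (SD, n = 3 each). Rnf13 and Rnf150 overlapped between libraries, and the other neighbours in that order did not. When the counts were divided by the longest coding transcript instead, Rnf13 was the highest member in WT, at 40.8 ± 1.79 CPM per kilobase (CPM being the count scaled to the library total), above Rnf167 at 34.4 ± 0.854. On that scale Rnf13 was at 17.9 ± 1.65 in Myrf-kd, where Rnf167 was at 36.1 ± 1.17 and Rnf150 at 18.8 ± 0.610. Rnf13 thus held the first place in WT and the third in Myrf-kd on the transcript scale, where its Myrf-kd libraries overlapped those of Rnf150 above it and of Rnf130 below it. By FPKM it held the third place in WT and the fifth in Myrf-kd, below Rnf149 at 5.38 ± 0.508 FPKM.

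The summed FPKM of the members was 51.4, 47.0 and 44.3 in Myrf-kd 1, 2 and 3 and 51.6, 49.9 and 52.2 in WT 1, 2 and 3. By FPKM the sums overlapped between the groups, since Myrf-kd 1 lay above WT 2. That overlap holds for the FPKM lengths only. By the longest coding transcript Rnf13 weighed more in the sum, at 40.8 CPM per kilobase in WT and 17.9 in Myrf-kd. Rnf13 made 8.69% ± 0.349 of the FPKM sum in Myrf-kd and 18.6% ± 0.634 in WT (SD, n = 3 each). These shares also depend on the length used, which for Rnf13 was 10022 bases against 2678 in its longest coding transcript. Without Rnf13 the sum was 43.4 ± 3.24 FPKM in Myrf-kd against 41.7 ± 0.932 FPKM in WT, with overlapping libraries.

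**Figure D2:**
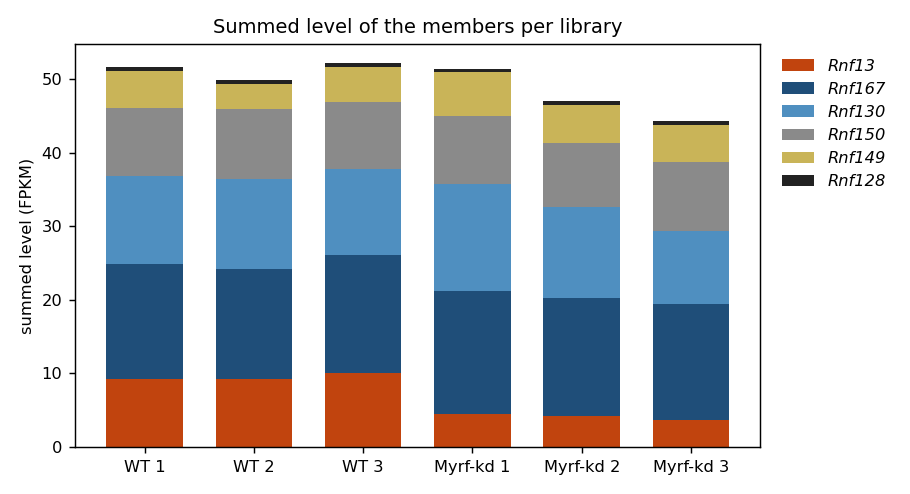
Stacked levels of the detected members in FPKM (vertical axis, from 0) in each library. The Rnf13 block is smaller in the Myrf-kd libraries, at 8.69% of the sum on average against 18.6% in WT, and the other blocks together come to 43.4 and 41.7 FPKM.

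The members are distant relatives by their coding sequence. Rnf13 and Rnf167 had 59.4% identical bases over 1024 aligned bases of the longest coding transcripts. Rnf130 and Rnf150 were the closest pair, at 64.2%, and Rnf13 and Rnf149 the most distant, at 53.7%. No 50-base word was shared between members. Of the Rnf13 words 2.66% were shared with another gene, the processed pseudogene Gm17951. It lies on the opposite strand over an exon of a noncoding Rnf13 transcript and had no count in any library. The Rnf167 transcripts shared 3.63% of their words with Slc25a11, a neighbour on the other strand.

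Genes around Rnf13 were looked at to see whether the difference extended along the chromosome. The table lists 28 other genes within 500 kb of Rnf13, of which 5 reached a mean of 1 FPKM and 8 had no count in any library. Pfn2, a profilin gene 6664 bases beyond its 3′ end, was at 55.2 ± 2.22 FPKM in Myrf-kd against 56.1 ± 3.41 in WT (SD, n = 3 each, edgeR adjusted p = 0.884). Commd2, 84347 bases before its start, was at 5.96 ± 0.991 and 5.62 ± 0.383 FPKM (edgeR adjusted p = 0.916). The uncharacterized Gm43437 was at 2.71 ± 0.424 and 2.10 ± 0.138 FPKM (edgeR adjusted p = 0.666). Its groups did not overlap, as in 14.6% of all tested genes. Wwtr1, which encodes the Hippo pathway factor TAZ, was at 3.30 ± 0.228 and 3.35 ± 0.0533 FPKM (edgeR adjusted p = 0.922). The farthest, Gm5537, was at 2.97 ± 1.37 and 2.49 ± 0.423 FPKM (edgeR adjusted p = 0.865). None of these 5 genes passed, and the nearest, Pfn2, had a log2 fold change of −0.04 against −1.22 in Rnf13.

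**Figure D3:**
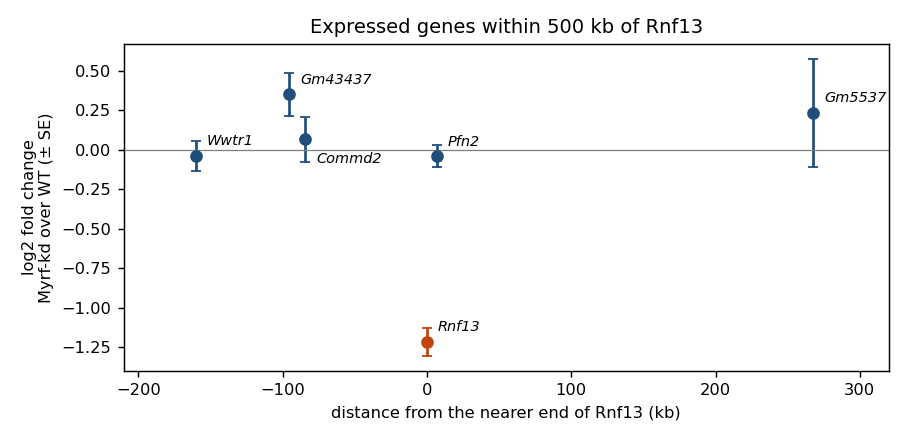
Log2 fold change of Myrf-kd over WT (vertical axis, ± SE from edgeR) against distance from the nearer end of Rnf13 in kb (horizontal axis) for the expressed genes within 500 kb. Rnf13 is at −1.22 and Pfn2, the nearest expressed gene, at −0.04.

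Other genes of the same domain family were mostly low in the retina. From here on, pairs of levels are the Myrf-kd and then the WT mean ± SD over 3 libraries each. Znrf3, a negative regulator of Wnt receptors, was at 1.45 ± 0.222 FPKM in Myrf-kd against 1.25 ± 0.190 in WT (edgeR adjusted p = 0.781). Its relative Rnf43 was at 0.210 ± 0.0693 and 0.257 ± 0.0559 FPKM, below the filter. Rnf148 was listed at 0 in every library, and Rnf133 in all but Myrf-kd 1.

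Ubiquitin-activating and conjugating enzymes, which supply the RING domain with ubiquitin, had 22 of 23 members tested, with 6 higher and 16 lower estimates and a median log2 fold change of −0.07. Over all tested genes the median was 0.00 and 48.9% of estimates were lower. None of the 22 passed by edgeR, with 4 at an unadjusted p under 0.05. The second activating enzyme gene Uba6 was at 2.18 ± 0.117 FPKM in Myrf-kd against 1.60 ± 0.184 in WT, and the conjugating enzyme gene Ube2w at 9.81 ± 0.681 and 8.21 ± 0.365 FPKM. Ube2r2, an E2 of cullin ligases, was at 13.2 ± 0.495 and 15.2 ± 0.993 FPKM (edgeR adjusted p = 0.666 for these 3 genes). Of the UBE2D enzymes, a common partner of RING ligases, Ube2d1 was at 6.41 ± 0.222 and 6.24 ± 0.241 FPKM and Ube2d3 at 10.7 ± 0.498 and 11.2 ± 0.505 FPKM. Ube2d2a was at 10.2 ± 1.48 and 12.2 ± 1.37 FPKM (edgeR adjusted p = 0.686), and Ube2d2b was listed at 0 in every library.

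Other membrane-bound RING ligases had 26 of 28 members tested, with 14 higher and 12 lower estimates and a median of 0.00. Of these 0 passed by edgeR, and 2 had an unadjusted p under 0.05. Rnf139, a ligase of the endoplasmic reticulum, was at 9.91 ± 0.639 FPKM in Myrf-kd against 11.5 ± 0.410 in WT. Bfar was at 6.51 ± 0.400 and 5.44 ± 0.583 FPKM, and March9, which targets membrane proteins for lysosomal breakdown, at 6.62 ± 0.197 and 7.42 ± 0.180 FPKM. Groups did not overlap in 9 of the 26, or 34.6%, against 14.6% over all tested genes and between 6.67% and 22.7% in the other 6 lists with more than 1 tested gene.

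The AP-3 adaptor and BLOC-1, complexes that sort cargo to lysosome-related organelles, had all 15 members tested, with 10 higher and 5 lower estimates and 0 past the test by edgeR, where 1 had an unadjusted p under 0.05. The adaptor subunit gene Ap3m1 was at 8.90 ± 0.591 FPKM in Myrf-kd against 7.01 ± 0.331 in WT (edgeR adjusted p = 0.666). Bloc1s6 was at 9.04 ± 1.37 and 5.75 ± 2.66 FPKM, with a log2 fold change of 0.64 ± 0.31 (SE, edgeR adjusted p = 0.693). That value was 1.05 without WT 1 and 0.39 without WT 2. Ap3d1, a large adaptor subunit, was at 25.9 ± 1.18 and 27.7 ± 1.48 FPKM. Snapin, a BLOC-1 subunit described as an RNF13 target, was at 17.0 ± 3.36 and 17.0 ± 4.02 FPKM (edgeR adjusted p = 0.983).

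The IRE1 and JNK arm of the stress response, to which RNF13 has been linked, had 2 of 10 members with higher and 8 with lower estimates, and a median of −0.07. By edgeR 0 passed, with 2 at an unadjusted p under 0.05. The sensor gene itself, Ern1, was at 7.30 ± 0.727 FPKM in Myrf-kd against 7.85 ± 0.652 in WT (edgeR adjusted p = 0.750), and its target Xbp1 at 23.9 ± 3.14 and 26.3 ± 2.74 FPKM. The transcription factor gene Jun was at 16.8 ± 4.51 and 27.7 ± 3.37 FPKM, with a log2 fold change of −0.74 ± 0.20 (SE, edgeR adjusted p = 0.666), and at −0.46 without replicate 3 of both groups. Jun was called lower by DESeq2 (adjusted p = 0.0394), the 1 list gene of 132 that DESeq2 called. Over all tested genes DESeq2 called 53 of 13673. The adaptor gene Traf2 was at 4.23 ± 0.307 and 3.48 ± 0.0921 FPKM, and the kinase gene Mapk8 at 7.60 ± 0.535 and 8.25 ± 0.443 FPKM.

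Genes for reported substrates and partners of the members had 12 of 13 tested, with 4 higher and 8 lower estimates, a median of −0.05 and 0 past the test (0 at an unadjusted p under 0.05 by edgeR, and 0 by DESeq2). Vamp3, an RNF167 target, was at 13.2 ± 0.228 FPKM in Myrf-kd against 14.3 ± 0.618 in WT, and the AMPA receptor gene Gria2 at 4.33 ± 0.143 and 4.21 ± 0.0885 FPKM. Sesn2, a stress-induced regulator of mTORC1, was at 8.38 ± 1.95 and 10.4 ± 0.331 FPKM (edgeR adjusted p = 0.697). Myrf-kd 3 was the lowest Sesn2 library, at 6.13 FPKM, and without it the log2 fold change went from −0.33 to −0.15. Usp8, a deubiquitinase gene, was at 22.3 ± 1.67 and 19.8 ± 2.60 FPKM. Cd40lg, a GRAIL target in T cells, was listed at 0 in every library.

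Lysosome and late endosome membrane genes, which share the compartment of RNF13 and RNF167, had 24 tested of 25 found, with 11 higher and 13 lower estimates and a median of −0.02. The membrane glycoprotein gene Lamp1 was at 101 ± 6.36 FPKM in Myrf-kd against 111 ± 2.47 in WT, and the small GTPase gene Rab7 at 87.8 ± 10.2 and 99.5 ± 3.42 FPKM. Slc38a9, an amino acid sensor of the lysosome, was at 5.68 ± 0.502 and 5.01 ± 0.175 FPKM. Lysosomal hydrolase genes, 22 of 22 tested, had 7 higher and 15 lower estimates and a median of −0.04. The protease gene Ctsl was at 15.7 ± 2.29 and 19.7 ± 1.80 FPKM (edgeR adjusted p = 0.666), Tpp1 at 26.9 ± 0.630 and 24.7 ± 1.61 FPKM, and the lipase gene Lipa at 2.09 ± 0.301 and 1.71 ± 0.230 FPKM. By edgeR 0 genes of these 2 lists passed, with 0 and 1 at an unadjusted p under 0.05, and DESeq2 called 0 of them.

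**Figure D4:**
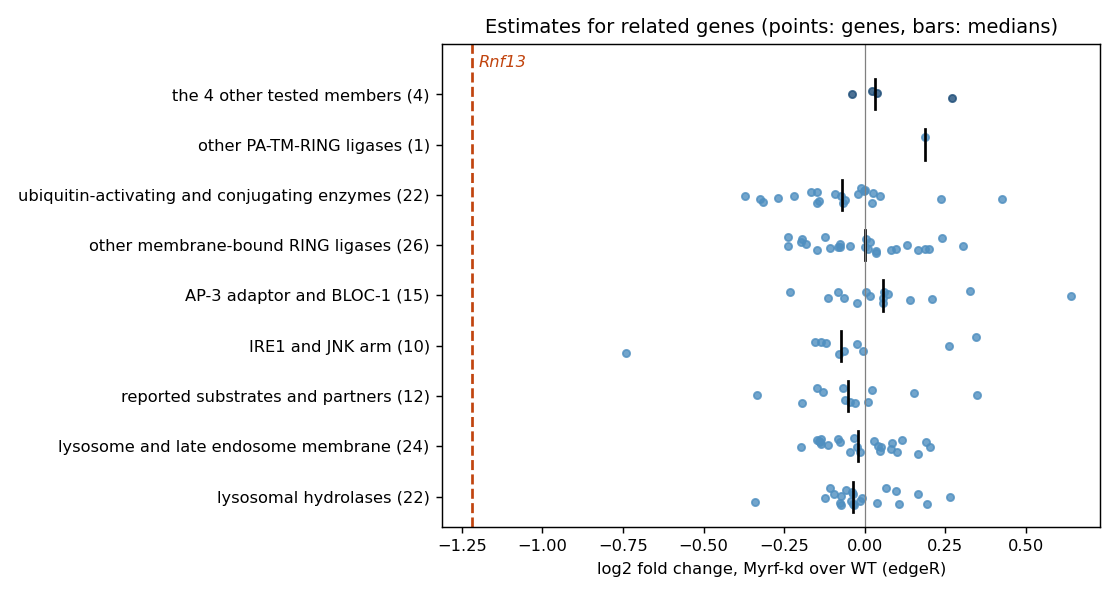
Log2 fold change of Myrf-kd over WT (horizontal axis, edgeR) for the tested genes of each list (rows, number of genes in brackets); points are genes and bars are medians. The medians of lists with more than 1 tested gene lie between −0.07 and 0.06. The list at 0.19 has 1 tested gene, Znrf3, and the dashed line marks Rnf13 at −1.22.

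The genes with the pattern most like that of Rnf13 were ranked by Pearson's r of log2(FPKM + 1) over the 6 libraries. Since the Rnf13 values form separate clusters by group, a high r here mostly restates a difference between the groups, and it is given as a description. The highest were Gm9780 (r = 0.996), the choline and heme transporter gene Flvcr1 (0.995), the TGF-beta co-receptor gene Tgfbr3 (0.993), Spidr (0.989) and the endothelial cadherin gene Cdh5 (0.987). Flvcr1 was at 1.74 ± 0.130 FPKM in Myrf-kd against 5.80 ± 0.337 in WT, and Cdh5 at 1.06 ± 0.0243 and 1.32 ± 0.0257 FPKM. At an r of at least 0.95 there were 44 tested genes.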

How the data were processed

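RNA of mouse retina was measured in 6 libraries, 3 Myrf-kd and 3 WT, grouped and numbered by the sample titles. The submitters' processing notes list HISAT2 2.0, StringTie 1.3.0, Bowtie 0.12.2 and the build GRCm38 without saying what each did. The authors deposited 1 table of 55450 genes with an FPKM and a count per library. The FPKM columns, per the file headers, hold length- and depth-scaled values, with 0.0001 for no signal, treated here as 0 in sums. The deposited counts are whole numbers of about 4 units per fragment and were treated as estimated counts. They needed no rounding. For single-transcript genes above 200 units, counts lay within 1% of FPKM times length times 1 constant per library for 100.0% of genes. Whether strand was kept is not stated in the labels.

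The 13673 genes whose mean FPKM reached 1 were tested with edgeR 4.0.16 (quasi-likelihood, TMM factors, genotype as the only term, two-sided, Benjamini-Hochberg adjustment, threshold 0.05). SE is the log2 fold change over the root of F. Shares of genes whose groups did not overlap were taken on CPM with the TMM factors, and the overlap of single members on FPKM. All 55450 identifiers matched GENCODE M21 of GRCm38, which gave transcript lengths, coding sequences and shared 50-base words. The members and gene lists were chosen with earlier results of these data known. Of the 141 list symbols 1 was not found. Named are all members, up to 3 genes per list with the smallest p, the 4 nearest neighbours with a mean FPKM of at least 1, and the 5 genes most correlated with Rnf13. Other genes named were chosen after their values were seen. Alternatives were limma 3.58.1 on log2(FPKM + 1) and log2(FPKM + 0.1), DESeq2 1.42.0, other scalings and filters, a replicate block and the omission of libraries.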

Additional observations from a re-analysis of the deposited data

How the results depend on the processing

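The log2 fold change of Rnf13 lay between −1.28 and −1.03 over 16 alternatives, and 15 of them differed from −1.22 by less than the SD between replicates. The other, limma on log2(FPKM + 1), gave −1.035, a scale that understates changes of low genes. The number of members other than Rnf13 past the threshold was 0 in all 16 alternatives, with 0 at an unadjusted p under 0.05 by edgeR, limma and DESeq2. The count of 6 genes past the threshold became 53 with DESeq2, 2 at a mean FPKM of at least 5, between 9 and 16 when 1 library was left out, and 22 without replicate 3 of both groups. With the replicate number as a block it was 0 by edgeR (701 genes at an unadjusted p under 0.05, and 4 past the threshold by limma without the block), and the Rnf13 log2 fold change was −1.22. Deviations of same-numbered libraries correlated at −0.0604, −0.00269 and 0.0651, and not every library correlated best with its own number, so the numbers were not taken as pairs. Leaving out single libraries moved the log2 fold change of Rnf130 between −0.12 and 0.15, Commd2 between −0.0399 and 0.187, Pfn2 between −0.0956 and 0.0027 and Wwtr1 between −0.0872 and 0.012. Wwtr1 was at 0.000735 without replicate 3 of both groups. The cause was not tested. By depth, Rnf128 rests on 27 to 38 fragments per library and Znrf4 had no count.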
